A study of Mus musculus with 2 samples.

Results

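Myelin is built from a small set of proteins, and 9 of their genes are described here: Mbp, Mog, Mag, Mobp, Cnp, Cldn11, Mal, Opalin and Ermn. They were chosen by name and not by their values, and all 9 of them were found among the 32285 features of both count matrices. Each was followed over cells that carry the markers Gpr17, Enpp6 and Tcf7l2, with C1q-positive cells as the background.

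Single-cell RNA was measured in C57BL/6J mouse pups on postnatal day 8, after papain dissociation of cortex and corpus callosum and magnetic bead selection for PDGFRα and O4. Every pup received the virus pAAV-hSyn-DIO-hM4D(Gi)-mCherry on postnatal day 0, and every pup was given clozapine-N-oxide (CNO) by mouth 2 times a day from postnatal day 2 to postnatal day 8. hM4D(Gi) is an inhibitory receptor that CNO activates. Its hSyn promoter is a neuronal one, and the DIO design leaves it silent until Cre recombinase turns it round. WT-CNO was 1 library pooled from 2 wildtype pups without Cre. DREADD-CNO was 1 library pooled from 3 pups with a Cre copy at Neurod6 (Neurod6tm1(cre)Kan, NexCre+/-), a gene of cortical excitatory neurons. No group here lacked the virus or CNO. With 1 library in each group there is no replicate and no test between groups, and genotype, pups and library cannot be told apart.

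Oligodendrocyte precursors divide and carry Pdgfra. As they commit, they turn on the receptor gene Gpr17, then Enpp6, a choline phosphodiesterase of newly formed oligodendrocytes, and Tcf7l2, a transcription factor of the same stage. Myelin genes follow under the transcription factors SOX10 and MYRF. CNP lies in the cytoplasmic channels of myelin, and MBP compacts its membranes. MAG faces the axon, MOG lies on the outermost surface of the sheath, claudin 11 forms its tight junctions, and MOBP, MAL, opalin and ermin are known from later, myelin-forming cells.

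The DNA just before the start site is shown for an early, an intermediate and a late member of the order described below. Sequences are RefSeq's on GRCm38.p6, run from 250 to 51 bases before the RefSeq start and are written 5′ to 3′ on the gene's strand. Cnp lies on chromosome 11 (window chr11:100574689-100574888, + strand), Mag on chromosome 7 (its first listed start, chr7:30914914-30915113, − strand) and Mobp on chromosome 9 (chr9:120149492-120149691, + strand). Capitals mark ACAAAG, a motif that SOX factors bind (CTTTGT on the other strand), and CTGGCAC, a motif of MYRF.
Cnp: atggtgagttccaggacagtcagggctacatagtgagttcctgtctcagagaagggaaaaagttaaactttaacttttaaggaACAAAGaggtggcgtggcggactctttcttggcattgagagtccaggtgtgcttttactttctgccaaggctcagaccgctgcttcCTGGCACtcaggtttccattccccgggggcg
Mag: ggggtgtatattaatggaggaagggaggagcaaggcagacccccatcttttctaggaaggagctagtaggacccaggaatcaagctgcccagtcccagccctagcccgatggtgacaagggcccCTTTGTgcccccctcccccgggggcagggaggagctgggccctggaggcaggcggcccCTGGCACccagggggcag
Mobp: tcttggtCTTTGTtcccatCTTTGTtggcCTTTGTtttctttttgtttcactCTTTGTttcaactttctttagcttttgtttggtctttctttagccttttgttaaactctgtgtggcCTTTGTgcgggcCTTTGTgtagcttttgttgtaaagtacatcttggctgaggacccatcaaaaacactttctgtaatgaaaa
ACAAAG, counted on both strands, was present in 13.57% of all 32851 RefSeq windows of this length. The Mobp window held 6 matches, the highest number in any window, and 2 windows held 5 or more. The Cnp and the Mag window held 1 ACAAAG and 1 CTGGCAC each, and CTGGCAC was present in 3.345% of all windows. Of the other members with a window, Mog, Cldn11, Mal and Ermn held no ACAAAG and Opalin held 1. Mog held CTGGTAC, another form of the MYRF motif, which was in 1.540% of windows. Windows could be matched for 8 of the 9 members (10 windows, as Mag has 3 starts), and Mbp was not matched. The motifs and the limit of 5 were chosen after the Mobp window had been seen, and a match is a description of letters, not of binding. By GENCODE M21 on GRCm38 the genes span chr11:100574904-100591729 (Cnp), chr7:30899176-30914873 (Mag), chr9:120149707-120181484 (Mobp), chr17:37010743-37023398 (Mog), chr3:31149920-31164324 (Cldn11), chr2:127633226-127656695 (Mal), chr19:41061710-41077113 (Opalin) and chr2:58045113-58052864 (Ermn). The 3 windows printed lie just outside these spans.

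The WT-CNO library held 78794300 UMIs (unique transcript molecules counted) in 6252 barcodes and the DREADD-CNO library 108912581 UMIs in 6754. Barcodes with fewer than 500 genes or over 10% mitochondrial UMIs were left out, which kept 4272 and 4986. Lineage cells, with at least 2 UMIs of Olig1, Olig2 and Sox10 together and fewer than 10 of C1qa, C1qb and C1qc, numbered 3624 (median 12263.5 UMIs) and 4176 (19208 UMIs). Those with under 3% of UMIs on ribosomal protein genes, called ribosomal-poor here, were 55.93% and 31.39% of them. The libraries shared 12 barcodes, 6 of them kept in both. C1q-positive cells, with at least 10 C1q UMIs and fewer than 2 lineage UMIs, numbered 201 and 220 (medians 14051 and 13994 UMIs), and carried C1qa at 3549 and 3812 CPM. Levels below are pooled UMIs of a class as CPM, UMIs of the gene scaled to the UMIs of the class, with exact Poisson 95% intervals, which cover counting error only.

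Lineage cells were placed in an order by the levels of Pdgfra, Gpr17 and Enpp6 alone, with no member gene used. The limits were chosen after member levels over bins of these markers had been seen, and the order is one of marker levels, not of time. Precursor cells (2405 and 2055, always WT-CNO first) had Pdgfra at 300 CPM or more, Gpr17 under 1000 and Enpp6 under 300. Gpr17-high cells (276 and 299) had Gpr17 at 1000 CPM or more and Enpp6 under 300. Enpp6-rising cells (144 and 285) had the same Gpr17 with Enpp6 from 300 to 1000, and double-high cells (143 and 300) had both at 1000 or more. Gpr17-falling cells (198 and 445) and Gpr17-low cells (48 and 105) had Enpp6 at 1000 or more with Gpr17 from 300 to 1000 or under 300. Enpp6-falling cells (72 and 115) had Enpp6 at 300 to 1000 with Gpr17 under 1000 and Pdgfra under 300. "Rising" and "falling" name marker levels in these classes, and the limits cannot tell a rising from a falling Enpp6. Tcf7l2, which was not used, went from 163.1 and 122.9 CPM in precursor cells to 1745 and 1458 CPM in Gpr17-falling cells.

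**Figure D1:**
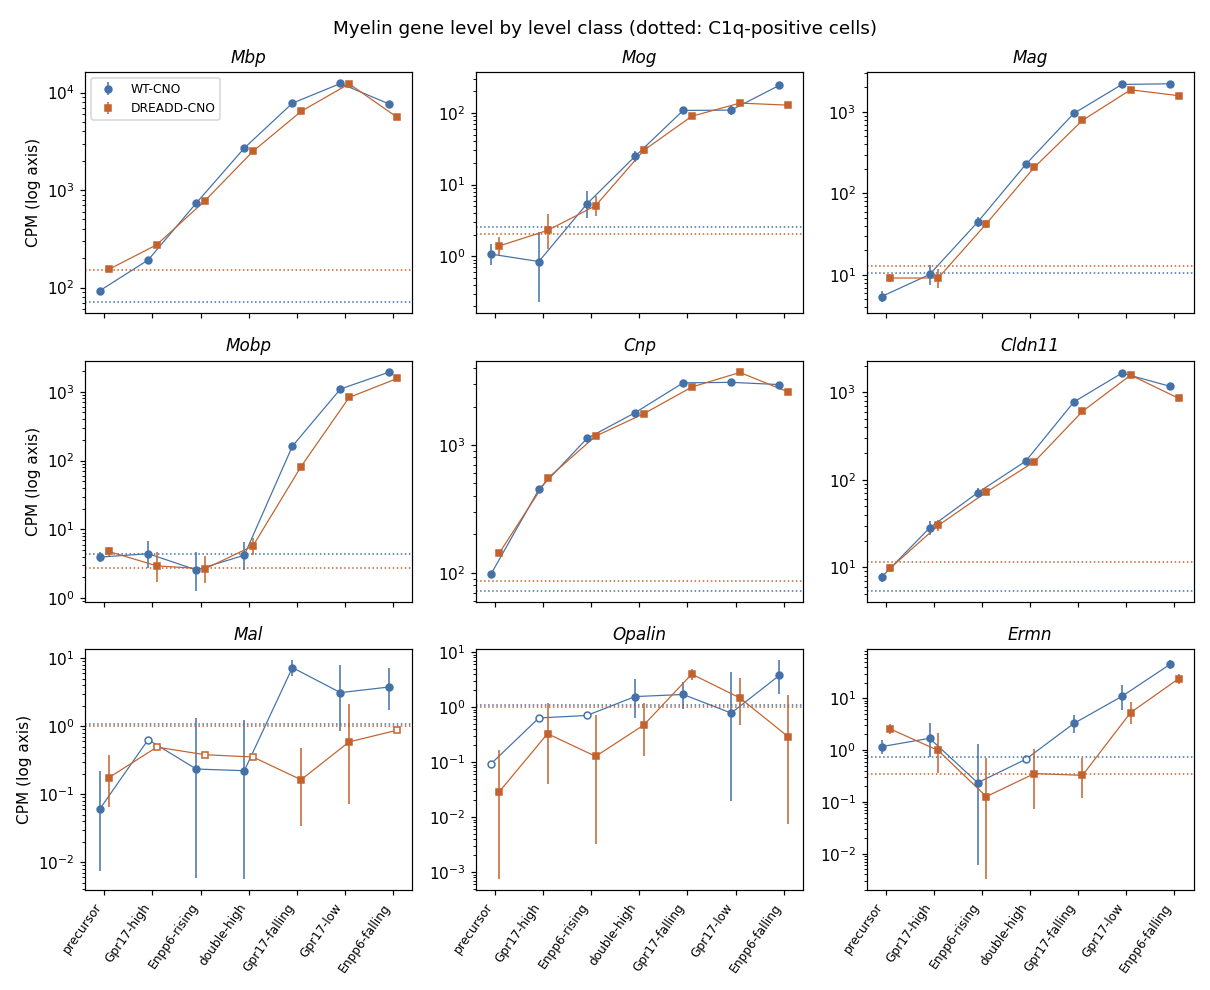
Level of each member (CPM, log axis) in the 7 classes, from precursor to Enpp6-falling cells, in WT-CNO and DREADD-CNO, with 95% counting intervals; dotted lines are the level in C1q-positive cells, and open points, and the dotted lines of Mal and Opalin, are the limit that a count of 0 allows. Cnp is well above its dotted line in Gpr17-high cells, whereas Mobp stays near its own until the Gpr17-falling class.

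C1q-positive cells, which also carried the microglial gene Cx3cr1 at 1172 and 1041 CPM, should lack myelin genes, and the level of each member there was taken as its background. Mbp stood at 71.1 CPM (61.5 to 81.8) in the C1q-positive cells of WT-CNO and at 151.7 CPM (137.9 to 166.4) in those of DREADD-CNO. Cnp stood at 72.6 CPM and 86.2 CPM in them. Both genes are thus present in cells that should lack them, and the Mbp background differed between the libraries by 2.133-fold (1.799 to 2.536). The same rule called 2.24% of 4858 genes higher in these cells. The other members were far lower: Mag at 10.5 and 12.95 CPM, Cldn11 at 5.44 and 11.6 CPM, Mobp at 4.35 and 2.73 CPM, Mog at 2.54 and 2.05 CPM and Ermn at 0.726 and 0.341 CPM. Mal and Opalin had 0 UMIs there, which allows up to 1.088 and 1.022 CPM. In C1q-positive cells with 2 or more lineage UMIs, left out of the background, Mbp was at 178.8 CPM (243 cells) and 643.8 CPM (208 cells).

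Cnp, the 2′,3′-cyclic nucleotide phosphodiesterase of non-compact myelin, was the first member to pass 10% of its peak. A peak here is the highest of the 7 classes, and some cells outside them held members above it. Its level in WT-CNO was 97.2 CPM in precursor cells, 449.0 CPM (430.1 to 468.5) in Gpr17-high cells and 1125 CPM in Enpp6-rising cells. In DREADD-CNO these levels were 143.4 CPM, 547.1 CPM (528.7 to 566.0) and 1173 CPM. With the C1q level taken off, Gpr17-high cells were at 12.5% and 12.8% of the highest class and Enpp6-rising cells at 34.9% and 30.1%. Mbp and Cldn11 were also above their C1q level in Gpr17-high cells in both libraries, at a smaller share of their peaks. By pooled level, Gpr17-falling cells held 99.1% of the Cnp peak in WT-CNO and 76.3% in DREADD-CNO. That peak, in Gpr17-low cells, rests on few cells in WT-CNO. The median Gpr17-low cell there had 456.6 CPM, against 2756 CPM in Gpr17-falling cells. Without the 5 cells richest in Cnp these classes were at 2300 and 2952 CPM. In DREADD-CNO the medians were 3333 and 2713 CPM. No flattening and no library difference is thus read from these shares.

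Mbp, the myelin basic protein whose mRNA is carried into the sheath, was next to Cnp in Enpp6-rising cells. In WT-CNO it went from 191.7 CPM in Gpr17-high cells to 734.7 CPM in Enpp6-rising cells, 2698 CPM in double-high cells, 7777 CPM in Gpr17-falling cells and 12386 CPM in Gpr17-low cells. In DREADD-CNO the same classes had 275.0, 776.7, 2497, 6407 and 12289 CPM. Without their 5 richest cells the Gpr17-low cells were at 9488 and 11151 CPM, and their medians were 6672 and 8797 CPM. Gpr17-high cells were at 0.979% and 1.02% of the Mbp peak, Enpp6-rising cells at 5.39% and 5.15% and double-high cells at 21.3% and 19.3%. Mbp was lower in Enpp6-falling than in Gpr17-low cells, at 7675 and 5572 CPM. Single Enpp6-falling cells ranged from 0 to 51909 and 39613 CPM, with medians of 2039 and 1141 CPM. The medians in Gpr17-falling cells were 6925 and 5951 CPM, so the lower class level is not read as a decline.

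Cldn11, the claudin of the radial tight junctions, had a small early part. It was at 7.73 CPM in WT-CNO precursor cells and 28.3 CPM (23.7 to 33.5) in Gpr17-high cells, and at 9.81 and 30.2 CPM (26.0 to 34.8) in DREADD-CNO. By percent of peak this early level was 1.39% and 1.197%, with 4.01% and 3.92% in Enpp6-rising cells and 46.6% and 38.1% in Gpr17-falling cells. The Cldn11 values in Gpr17-high cells were above those of Mbp (0.979% and 1.02%). They lay close, and the Cldn11 background rests on 15 and 34 UMIs, so which gene led there is not resolved. From Enpp6-rising to Gpr17-falling cells Cldn11 was behind Mbp.

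Mag, the periaxonal adhesion molecule, stood at its background in Gpr17-high cells, with 10.1 CPM (7.47 to 13.4) and 9.18 CPM (6.93 to 11.9). It reached 44.5 CPM and 42.5 CPM in Enpp6-rising cells, 227.2 CPM and 210.1 CPM in double-high cells and 960.9 CPM and 788.9 CPM in Gpr17-falling cells. These were 1.54% and 1.59%, 9.82% and 10.6%, and 43.1% and 41.8% of its peak. Mag and Cldn11 thus lay close to each other in double-high and Gpr17-falling cells, both behind Mbp in percent of peak. In Enpp6-falling cells, where Mbp was lower than in Gpr17-low cells, both were ahead of it by pooled level. The median cell of that class had Mag at 61.4 and 106.7 CPM and Cldn11 at 118.3 and 110.4 CPM. Without the 5 cells richest in the gene, Mag was at 1044.5 and 683.0 CPM there and Cldn11 at 624.1 and 428.6 CPM. These pooled levels thus rest on few cells, and no order is read from them.

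Mog, the surface glycoprotein, was well above its background in double-high cells, at 24.8 CPM (20.4 to 29.8) and 30.04 CPM (26.5 to 34.0). Enpp6-rising cells held only 23 and 40 Mog UMIs, so its place beside Mag there is not resolved: Mag led in WT-CNO and Mog in DREADD-CNO. Its peak was in Enpp6-falling cells in WT-CNO (242.9 CPM) and in Gpr17-low cells in DREADD-CNO (137.4 CPM). The median Enpp6-falling cell of WT-CNO had 0 Mog UMIs, and without the 5 of 72 cells richest in Mog the class was at 58.5 CPM, under the 84.7 CPM of Gpr17-falling cells treated alike. Each percent of peak of Mog in WT-CNO thus rests on those 5 cells.

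Mobp, a small protein of compact myelin, came last of the 6 members that could be ordered. It stayed at 2.58 to 4.43 CPM in the first 4 classes of WT-CNO and at 2.67 to 5.75 CPM in those of DREADD-CNO, near its C1q level. Gpr17-falling cells had 162.0 CPM (153.4 to 170.9) and 81.8 CPM (77.7 to 86.0), Gpr17-low cells 1097 and 827.0 CPM, and Enpp6-falling cells 1913 and 1559 CPM. The last 3 classes were at 8.26%, 57.2% and 100% of the peak in WT-CNO and at 5.08%, 53.0% and 100% in DREADD-CNO. These levels also came from few cells. The median cell had 0 Mobp UMIs in both classes and both libraries. Without the 5 richest cells Mobp was at 138.6 and 445.8 CPM in Gpr17-low cells and at 832.3 and 481.6 CPM in Enpp6-falling cells. Double-high cells, which already had 21.3% and 19.3% of the Mbp peak, had −0.00765% and 0.194% of the Mobp peak.

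Ermn, which encodes an actin-associated protein of mature oligodendrocytes, reached 10.9 and 5.29 CPM in Gpr17-low cells and 45.1 CPM (37.0 to 54.4) and 23.9 CPM (19.0 to 29.6) in Enpp6-falling cells. The last of these rest on 108 and 82 UMIs. Mal, a proteolipid of membrane rafts, and Opalin, a transmembrane protein of oligodendrocytes, had fewer than 100 UMIs in each of the 7 classes. They could therefore not be placed in the order of the 7 classes. The late cells outside them held Mal at 178.3 and 1334 CPM and Opalin at 108.7 and 391.6 CPM, above each of the 7 classes. In WT-CNO 1 late cell gave 74 of the 82 Mal UMIs and 49 of the 50 Opalin UMIs of these cells. Of the 9 members, 6 had the 100 UMIs in their peak class in both libraries.

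**Figure D2:**
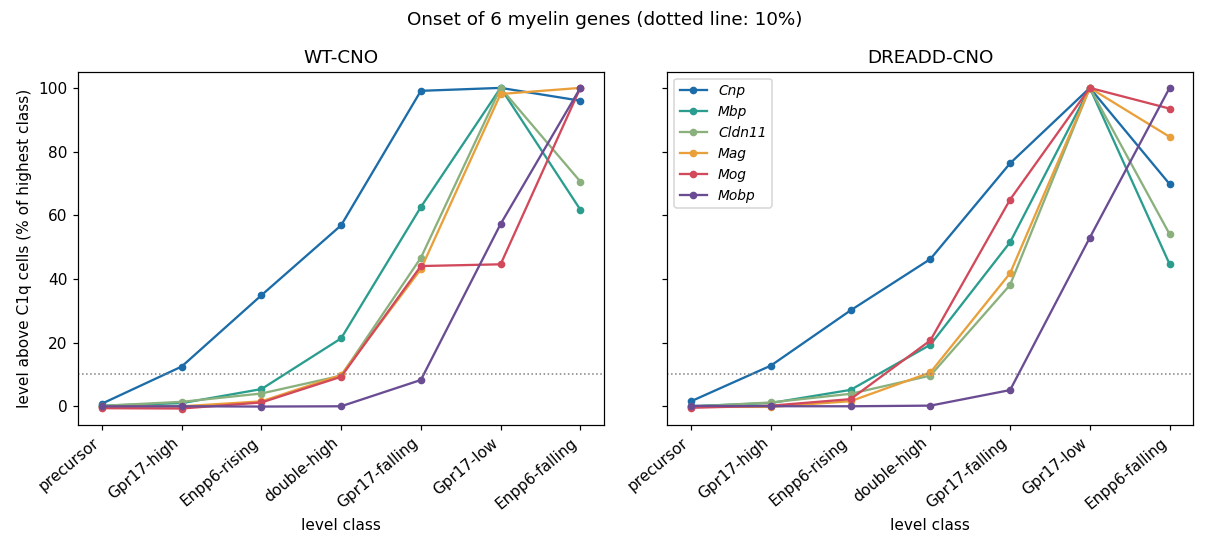
Level above C1q-positive cells as a percent of the gene's own highest class (y axis) for 6 members over 7 classes (x axis) in each library; the dotted line is 10%. Cnp passes 10% in Gpr17-high cells and Mbp in double-high cells, while Mobp is at 8.26% and 5.08% in Gpr17-falling cells.

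Over the 6, the order by percent of peak in Enpp6-rising cells was Cnp, Mbp, Cldn11, then Mag and Mog, then Mobp in both libraries. Cnp stood well apart from the rest at 34.9% and 30.1%, while Mbp (5.39% and 5.15%) and Cldn11 (4.01% and 3.92%) lay close, as did Mag and Mog. Other classes gave other orders. In Gpr17-high cells the value of Cldn11 was above that of Mbp, though their order there is not resolved. Mog of DREADD-CNO was ahead of Mbp in double-high (20.7% against 19.3%) and Gpr17-falling cells (64.9% against 51.5%). In WT-CNO Mog was behind Mbp there (9.26% against 21.3%, and 44.0% against 62.6%), with a Mog peak that rests on few cells.

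Steps between neighbouring classes were read with a rule of size: at least 20 CPM and 100 UMIs in the higher class, a ratio of 1.5 or more, and an interval of the ratio that excludes 1. From precursor to Gpr17-high cells, 3 of 3 measured members were higher in each library (Mbp, Cnp and Cldn11), against 10% and 8.16% of all genes. From there to Enpp6-rising cells 4 of 4 were higher, with Mag added at 4.396-fold and 4.63-fold, against 6.35% and 3.48% of genes. From Enpp6-rising to double-high cells 5 of 5 were higher in WT-CNO and 4 of 5 in DREADD-CNO, where Cnp at 1.496-fold was not, against 4.08% and 3.72% of genes. The step to Gpr17-falling cells raised 6 of 6 in both libraries (background 6.87% and 5.96%), and Mobp had the largest ratio of them, 38.5-fold (24.6 to 64.2) and 14.2-fold (10.7 to 19.3). To Gpr17-low cells 4 of 6 and 5 of 6 were higher (background 6.39% and 6.29%), with Cnp in neither. Some of these rises fell under the ratio of 1.5 without the 5 cells of each class richest in the gene. They were Mbp (7268 to 9488 CPM) and Mag (820.3 to 1149.5 CPM) in WT-CNO and Mog (81.25 to 91.7 CPM) in DREADD-CNO. The median WT-CNO cell had less of Mbp, Mag and Cldn11 in Gpr17-low than in Gpr17-falling cells. For Mag it was 555.2 against 621.4 CPM and for Cldn11 387.9 against 419.5 CPM. To Enpp6-falling cells Mog, Mobp and Ermn were higher and Mbp was lower in WT-CNO, of 7 measured. In DREADD-CNO Mobp was higher and Mbp and Cldn11 were lower, of 6 measured. The background of this last step was 21.7% higher and 10.4% lower in WT-CNO, and 15.9% and 10.7% in DREADD-CNO. Without the 5 cells of each class richest in the gene, Mog in WT-CNO went from 44.7 to 58.5 CPM at this step, Ermn ended at 10.03 CPM and Mobp in DREADD-CNO went from 445.8 to 481.6 CPM, so these 3 steps no longer met the rule. All of these classes were set by genes of the same cells, so the counts describe the order and test nothing.

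Pooled levels can come from few cells, so the share of cells with a UMI was taken after thinning each cell to 4533 UMIs. Cnp was found in 34.0% and 28.3% of C1q-positive cells, 57.5% (51.3 to 63.5) and 70.9% (65.3 to 76.0) of Gpr17-high cells and 94.4% and 94.0% of Enpp6-rising cells. Mbp was found in 22.7% and 47.6% of C1q-positive cells, 43.6% and 62.7% of Gpr17-high cells and 91.5% and 93.3% of double-high cells. Unthinned, the Mbp shares in C1q-positive cells were 55.2% and 80.9%. Precursor cells, with Cnp in 32.9% and 46.2% and Mbp in 34.5% and 47.4%, lay at or near the background in WT-CNO for Cnp and in DREADD-CNO for Mbp. Cldn11 was found in 20.8% and 22.8% of Enpp6-rising cells and 78.1% and 77.1% of Gpr17-falling cells, and Mag in 11.8% and 12.3%, then 81.6% and 83.0%. Mog was in 25.0% and 21.7% of Gpr17-falling cells. Mobp was in 1.41% (0.171 to 4.995) and 2.68% (1.17 to 5.22) of double-high cells and in 11.7% (7.59 to 17.1) and 6.56% (4.44 to 9.29) of Gpr17-falling cells. So most cells in that class carried Cnp, Mbp, Mag and Cldn11, and few carried Mobp. Of the Gpr17-low cells, 25.5% and 28.7% had a Mobp UMI. In Enpp6-falling cells the share was 17.6% and 9.91% although the CPM was higher, so no order is read from that share.

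**Figure D3:**
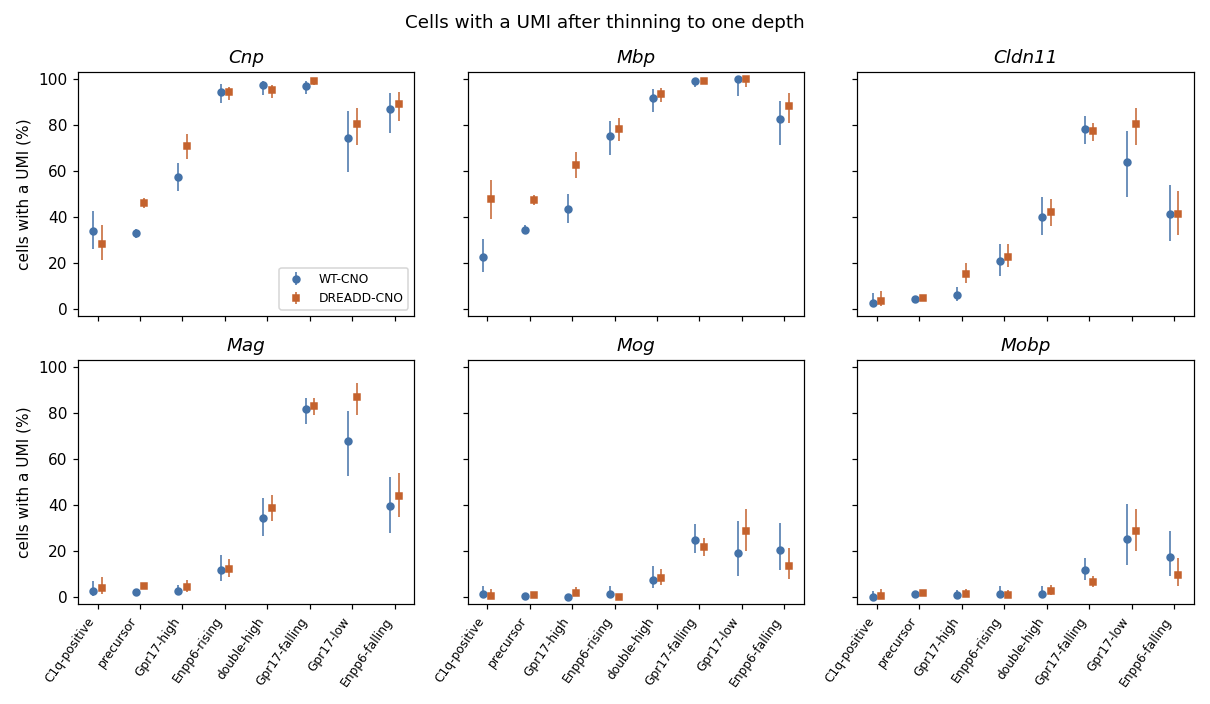
Share of cells with at least 1 UMI (percent, y axis) after thinning to 4533 UMIs, for C1q-positive cells and 7 level classes (x axis), with exact binomial 95% intervals in each library. Cnp and Mbp are found in C1q-positive cells too, at 22.7% to 47.6%, whereas Mobp is rare before the Gpr17-falling class.

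Pairs of members were counted in 2756 and 3367 thinned Gpr17-positive cells. Of the cells with Mag, 89.7% and 92.9% had Mbp, and of the cells with Mbp 22.8% and 31.1% had Mag. Which gene of a pair is more often found alone is set by how many cells each is found in, so no order of onset is read from such pairs.

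Tcf7l2 was used to split the double-high cells at 1000 CPM, which leaves Gpr17 and Enpp6 high on both sides. Mbp was at 1563 CPM (1509 to 1618) in the 70 cells below and 3614 CPM (3539 to 3689) in the 73 cells above in WT-CNO, and at 1952 CPM (188 cells) and 3354 CPM (112 cells) in DREADD-CNO. Mag was at 96.2 and 333.0 CPM, and at 138.1 and 323.5 CPM. Mog was at 12.4 and 34.8 CPM, and at 24.2 and 39.3 CPM. Cldn11 was at 99.2 and 214.9 CPM, and at 135.4 and 201.0 CPM. Cnp differed less in proportion, with 1524 and 2002 CPM, and 1632 and 1948 CPM. The 5 genes were all higher on the Tcf7l2-high side in both libraries, while Mobp, on 7 to 31 UMIs, was at 2.80 to 9.37 CPM on either side with no shared direction. Median depth was 28791.5 and 33175 UMIs in WT-CNO and 28899 and 30412 in DREADD-CNO.

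A simpler reading by UMIs, with 2 or more making a cell positive, resolved the onset less. All Gpr17-positive lineage cells (2864 and 3460) held Mbp at 2180 and 2606 CPM and Mobp at 188.9 and 163.0 CPM. In Enpp6-positive cells (714 and 1475) these were 5161 and 4592 CPM, and 452.9 and 289.2 CPM. In Tcf7l2-positive cells (2029 and 2638) they were 2732 and 3038 CPM, and 237.6 and 186.2 CPM. Enpp6-positive cells thus had the highest level of both genes. Gpr17 alone marked many precursor cells: 95.8% and 94.3% of cells with Gpr17 but neither Enpp6 nor Tcf7l2 were also Pdgfra-positive. These Gpr17-only cells (1021 and 958) held Cnp at 104.4 and 145.7 CPM. Cells with Gpr17 and 1 of the other markers (1192 and 1176) held Cnp at 145.3 and 228.7 CPM. Cells with all 3 markers (651 and 1326) held Cnp at 2299 and 2255 CPM, Mbp at 5198 and 4663 CPM and Mag at 847.8 and 697.3 CPM, and 6 of 9 members were measured there. By percent of peak in the cells with Gpr17 and 1 other marker, Cnp (3.27%), Cldn11 (0.930%) and Mbp (0.797%) were above 0 in WT-CNO among the 6. In DREADD-CNO Mog led there with 12.5%, before Cnp with 6.57%, but 1 cell supplied 261 of the 305 Mog UMIs. That cell had 0 Tcf7l2 UMIs, 255 of Mal and 267 of Mobp. A class without these 4 markers, set by Aspa, Gjb1, Trf and Hapln2, held 0 and 4 cells and was not used.

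Most UMIs of Mal, Opalin and Ermn sat in few cells. Mal had 163 UMIs in 16 of the WT-CNO lineage cells, with 148 in the top 5, and 1028 UMIs in 39 DREADD-CNO cells, with 896 in the top 5. Opalin had 81 UMIs in 16 cells and 354 in 45, and Ermn 324 in 66 and 579 in 113. For Mobp, 6 and 9 cells held 50% of the UMIs, against 67 and 166 cells for Mbp and 125 and 282 for Cnp. The richest WT-CNO cell had 220964 UMIs, of which 2599 were Mobp, 432 Mog, 74 Mal, 49 Opalin and 98 Ermn. The richest DREADD-CNO cell, with 85067 UMIs, had 378 Mal UMIs, 70 of Opalin and 85 of Ermn. A group of 8 DREADD-CNO cells had 5 to 27 Mal UMIs and 0 of Opalin and Ermn. These carried 138 to 1004 UMIs of 8 markers of other cell types and are left out of the level classes.

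**Figure D4:**
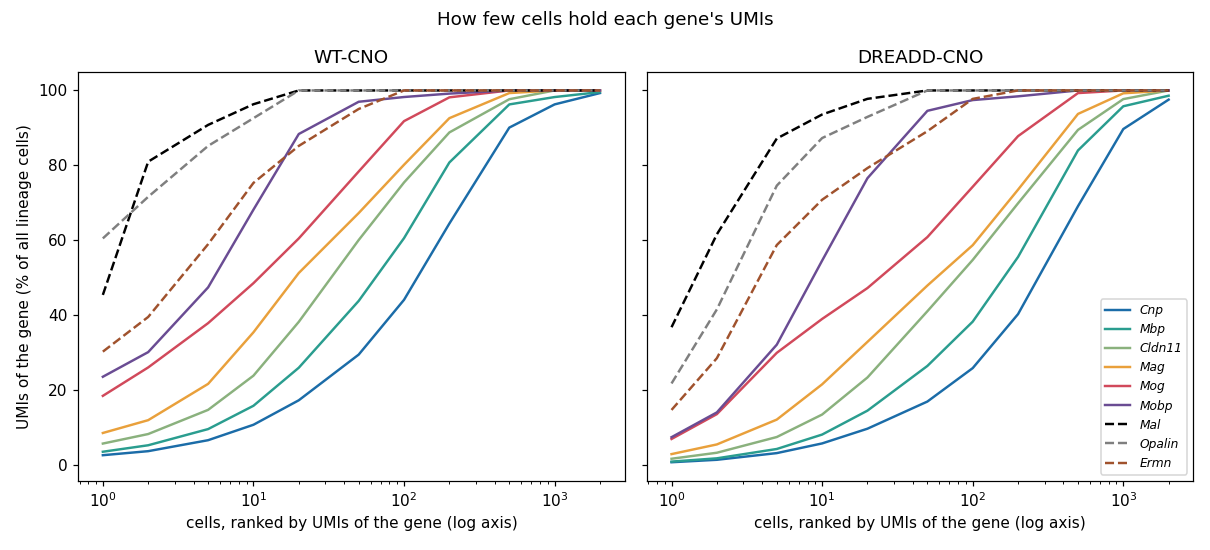
Cumulative share of a gene's UMIs (percent of all lineage cells, y axis) against cells ranked by their UMIs of that gene (log axis) in each library. The top 5 cells hold 90.8% and 87.2% of Mal but 6.60% and 3.15% of Cnp.

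Members were also compared between the libraries, class by class. A member was called higher or lower in DREADD-CNO by the same rule of size. In Gpr17-high cells 0 of 3 measured members were called, against 0.842% of 7604 genes higher and 1.26% lower. In Enpp6-rising cells 0 of 4 were called (0.363% and 0.587% of genes), in double-high cells 0 of 5 (0.431% and 0.273%) and in Gpr17-low cells 0 of 6 (3.76% and 2.76%). These counts of 0 are near the background and are not read as a result about the members. Mbp in double-high cells was at 2698 and 2497 CPM, a ratio of 0.925 (0.905 to 0.946), and Mag had a ratio of 0.925 (0.856 to 0.999). These intervals leave out a 1.5-fold difference for counting error only, and variation between pups is not in them. That of Mbp in Gpr17-high cells, 1.435 (1.323 to 1.557), does not leave it out. Neither do those of Mog in double-high cells, 1.211 (0.966 to 1.526), and in Gpr17-low cells, 1.253 (1.036 to 1.523).

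Mobp was called lower in Gpr17-falling cells, where 162.0 CPM in WT-CNO and 81.8 CPM in DREADD-CNO gave a ratio of 0.505 (0.469 to 0.544). It was 1 of 6 measured members, against 1.06% of 6711 genes lower. The member median of the log2 ratio was −0.28 against 0.03 for all genes. The median cell of this class had 0 Mobp UMIs in both libraries, and 1 cell gave 317 of 1339 UMIs and another 399 of 1505. Without the richest cell of each library the levels were 124.8 and 60.5 CPM (ratio 0.484), and without the richest 5 they were 66.8 and 32.2 CPM (0.482). Among ribosomal-poor cells of the class (24 and 30) the direction was the opposite, 6.80 CPM on 3 UMIs and 267.5 CPM on 147 UMIs, a ratio of 39.4 (13.2 to 193.1). With all level limits multiplied by 1.4 the ratio was 1.275.

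In Enpp6-falling cells Mog had 242.9 and 128.6 CPM, a ratio of 0.530 (0.467 to 0.600), and Ermn had 45.1 and 23.9 CPM, a ratio of 0.529 (0.392 to 0.712). They were 2 of 7 measured members called lower, against 1.04% of 5563 genes. Without the 5 cells richest in Ermn the levels were 10.03 and 6.42 CPM, under the limits of the rule, with a ratio of 0.640 (0.323 to 1.26). For Mog that ratio was 0.517, still called.

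Precursor cells differed in the other direction for Mbp, with 93.3 CPM (89.97 to 96.6) and 153.5 CPM (149.4 to 157.7), a ratio of 1.646 (1.574 to 1.722). Mbp was 1 of 2 measured members called higher, against 0.73% of 7813 genes, and Cnp at 1.476 (1.412 to 1.544) was not called. The C1q-positive cells moved with it, at 71.1 and 151.7 CPM of Mbp. The DREADD-CNO precursor level lies within the interval of its C1q level (137.9 to 166.4 CPM), so no ratio above background is read. Of the precursor cells, 69.48% and 45.5% were ribosomal-poor, and within them Mbp was at 100 and 153.6 CPM, against 85.1 and 153.5 CPM in the others. Mbp was thus higher in DREADD-CNO within both states, as it was in C1q-positive cells.

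**Figure D5:**
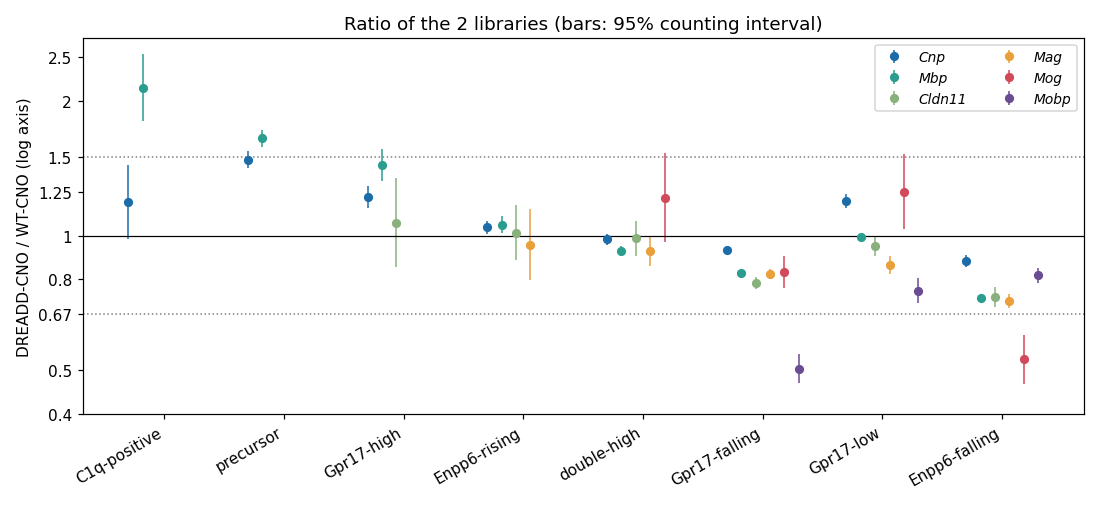
Ratio of DREADD-CNO to WT-CNO (log axis) for measured members in C1q-positive cells and 7 level classes (x axis), with exact 95% counting intervals. Mbp is above 1.5 in C1q-positive and precursor cells, at 1.435 in Gpr17-high cells and between 0.824 and 1.057 from Enpp6-rising to Gpr17-low cells. In Enpp6-falling cells Mbp is at 0.726, and Mobp lies at 0.505 in Gpr17-falling cells.

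By UMI-positive classes the split was similar. In cells with Pdgfra alone, Mbp (136.3 and 266.9 CPM) and Cnp (97.1 and 178.5 CPM) were both called higher, with ratios of 1.959 and 1.838 (background 5.01% of 4726 genes). In Gpr17-only cells Mbp was (93.05 and 160.8 CPM, 1.728), against 0.699% of genes. In cells with Gpr17 and 1 other marker, 4 of 4 were higher, against 2.26% of genes: Mbp 1.802, Mag 2.987, Cnp 1.573 and Cldn11 2.844. Leaving out the richest cell of each library for the gene gave Mag 1.780, at 5.79 and 10.3 CPM and so under the limit of 20 CPM, and Cldn11 2.347. Leaving out the richest 5 gave Mag 1.787 and Cldn11 1.537, at 8.69 and 13.4 CPM and also under it. Mbp (1.683) and Cnp (1.563) were still called then. Cldn5 was at 0.0478 CPM in these WT-CNO cells and 131.9 CPM in the DREADD-CNO cells, and its part in each of these ratios was not tested by itself. In cells with all 3 markers Mobp was lower, 458.5 and 291.5 CPM, a ratio of 0.636 (0.620 to 0.652), against 0.143% of 7017 genes lower and 0.128% higher. It did not hold up throughout, with 20 of 27 alternatives calling it lower. Without the richest cell of each library the ratio was 0.772, in female cells 0.792, in male cells 2.939 and in ribosomal-poor cells 5.082. In cells without Gpr17 but with Enpp6 or Tcf7l2 (216 and 233), Mbp (0.618), Mag (0.613) and Mobp (0.174) were lower, where 15.7% of 6104 genes were. That DREADD-CNO class held the endothelial gene Cldn5 at 1095 CPM against 0 in WT-CNO, and Pdgfra at 403.2 against 1034.8 CPM. All 3 endothelial markers searched were higher there (Pecam1 at 101.0 against 3.45 CPM, Flt1 at 480.9 against 0 CPM), as were all 4 astrocyte markers (Aqp4 at 234.1 against 50.6 CPM) and all 3 mural and all 3 fibroblast markers. Without cells that carried endothelial, mural or fibroblast markers, fewer gene and class pairs were called lower, as given in the last section. The part of these markers in each ratio was not tested by itself. Without the 5 richest cells of each library the ratios were 0.711 for Mbp, 0.870 for Mag and 0.243 for Mobp, with fewer than 100 Mobp UMIs left in either library, and none was called.

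Other myelin and oligodendrocyte genes, a list of 30 chosen for their function, were compared in the same classes. From precursor to Enpp6-rising cells 7 of 13 measured genes were higher in each library, and 1 and 0 were lower. The background was 23.9% higher and 24.6% lower in WT-CNO, and 17.8% and 22.0% in DREADD-CNO. Nfasc, which anchors the paranodal loops, went from 495.8 and 480.5 CPM to 3811 and 3383 CPM from Enpp6-rising to Gpr17-falling cells. From Enpp6-rising to Gpr17-falling cells 11 of 16 and 11 of 17 were higher and 2 lower, with a background of 11.1% and 18.5% in WT-CNO and 9.83% and 17.3% in DREADD-CNO. Between the libraries none of 17 measured genes was called in cells with all 3 markers, with a median log2 ratio of −0.10. Of all 7017 genes 0.128% were higher and 0.143% lower there. Ratios there included Cd9 (1.185), Gjc3 (1.141) and Tppp (0.747). In Gpr17-falling cells 4 of 16 were lower, against 1.06% of all genes, among them Tppp, a tubulin-binding protein (71.0 and 36.7 CPM, 0.517), Trf, transferrin (46.5 and 29.8 CPM, 0.641), and Septin4 (69.7 and 46.4 CPM, 0.665).

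The enzymes of myelin glycolipids, Ugt8a, Fa2h and Gal3st1, were all higher in Enpp6-rising than in precursor cells (Ugt8a 303.1 and 321.1 CPM against 182.5 and 197.2), and only Ugt8a was called higher again in Gpr17-falling cells (1016 and 940.6 CPM). Of 11 transcription factors of the lineage, 7 of 10 measured were higher and 1 lower in Enpp6-rising cells in both libraries, against 23.9% and 24.6% of all genes in WT-CNO and 17.8% and 22.0% in DREADD-CNO. Myrf, the activator of myelin genes, went from 10.3 and 11.8 CPM to 106.4 and 109.1 CPM, and then to 204.2 and 201.0 CPM in Gpr17-falling cells. St18 went from 6.93 and 7.77 CPM to 624.0 and 481.3 CPM. At the second of these steps 6 of 11 were higher and 4 lower, against 11.1% and 18.5% of all genes in WT-CNO and 9.83% and 17.3% in DREADD-CNO, with Olig1 at 685.9 and 678.7 CPM before it and 348.1 and 348.3 CPM after it. Of 4 genes that handle Mbp mRNA, Fyn (3647 and 3635 CPM) and Qk (4256 and 4138 CPM) were higher in Enpp6-rising than in precursor cells and none was called at the step after. The shares of all genes at these steps, here and for the enzymes, were those given for the factors. Between the libraries 0 of 3, 0 of 11 and 0 of 4 genes of these lists were called in cells with all 3 markers. Of all 7017 genes only 0.128% were higher and 0.143% lower there, so these counts of 0 are near the background. Ratios there were 0.968 to 1.052 for the enzymes, 0.819 (Zfp536) to 1.072 (Zfp488) for the factors and 0.971 to 1.011 for the Mbp mRNA genes.

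The genes most like the members were searched over 16 points, the C1q-positive cells and 7 level classes in both libraries, by Pearson's r of log2(CPM + 1). The points share libraries and cells, and 6339 genes were compared. Among the 5 genes most like the mean of the members were Josd2 (0.984), Arpc1a (0.983), Adamts4 (0.982) and Nkx6-2 (0.981). Of single members, Cnp was closest to Sirt2 (0.995), Mbp to Tprn (0.993), Mag to Nkx6-2 (0.996), Mog to Nkx6-2 (0.989) and Cldn11 to Josd2 (0.996). Over the 12 points of the UMI-positive classes the first 5 included Bfsp2 (0.964), Gng4 (0.963), Bcar1 (0.955) and Eya2 (0.950), and no gene was among the first 5 in both searches.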

How the data were processed

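Each deposited matrix held raw UMI counts for every feature and cell barcode of a Single Cell 3' v3 library, unnormalised; the submitters' processing notes name Cell Ranger 7.1.0; the genome build is not given in the sources used here. Matrices were read with Python 3.11.15, numpy 2.4.6, scipy 1.17.1 and pandas 2.3.3. Ratios have exact conditional intervals, shares exact Clopper-Pearson intervals, and all intervals are 95% and cover counting error only. Cells for thinned shares were drawn without replacement to 4533 UMIs (10th percentile over lineage cells of both libraries), and shallower cells were left out. A floor for a count of 0 used 3 counts. Level classes held cells with at least 3000 UMIs and fewer than 3 UMIs of 8 markers of other cell types, which left 3286 and 3604 cells in the 7 classes described.

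The genes named are all 9 members and, from 4 functional lists, the 2 most abundant in cells without Gpr17 but with Enpp6 or Tcf7l2 and the 2 with the largest and smallest library ratio in cells with all 3 markers, with the 5 genes most like the member mean. Some genes the rule takes are not reported here. List genes called lower in Gpr17-falling cells, Myrf, Olig1, Ugt8a and marker genes were named in addition, after their values were seen. The members and lists were chosen with earlier results of these data known. Level classes were added after the data were seen, since the UMI-positive classes mixed precursors with later cells. With 1 library per group no model was fitted. Simulated data with known changes were used to test this rule of calling. Scrublet in scanpy 1.11.5 called 0 and 5 doublets with its automatic threshold, far under the expected 3.42% and 3.99% of barcodes; these calls were not used and no cell was removed, and removing the 168 and 206 highest scores was an alternative. TMM factors (edgeR 4.0.16, R 4.3.3) and median-of-ratios factors were alternative scalings. Figures used matplotlib 3.10.9.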

Additional observations from a re-analysis of the deposited data

Results flagged for a closer look

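Lineage cells that no UMI-positive class took (124 in WT-CNO and 188 in DREADD-CNO, with median depths of 936 and 1260 UMIs) carried members above their level in C1q-positive cells, in data that no comparison used. Mbp was at 3886 CPM in WT-CNO and 2125 CPM in DREADD-CNO, Cnp at 1108 and 613.2 CPM, and Mobp at 598.3 and 302.1 CPM.

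Mbp and Mag had library ratios of opposite direction in different UMI-positive classes. Mbp was higher in DREADD-CNO in cells with Pdgfra alone (1.959), with Gpr17 alone (1.728) and with Gpr17 and 1 other marker (1.802), and lower in cells without Gpr17 (0.618). Mag was higher in cells with Gpr17 and 1 other marker (2.987) and lower in cells without Gpr17 (0.613). The difference between classes was not tested. Without the richest cell of each library for the gene, Mag in cells with Gpr17 and 1 other marker was at 5.79 and 10.3 CPM, under the limit of 20 CPM for a call, with a ratio of 1.780. Without the 5 richest cells of each library for the gene, the ratios in cells without Gpr17 were 0.711 for Mbp and 0.870 for Mag, neither of them called.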

How the results depend on the processing

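No paired analysis was possible because each group is 1 library. Of 178 values of main results under alternatives, 143 stayed within 1.5 times and 35 did not; of 625 values for single genes, 462 stayed within the counting interval, 158 moved out of it and 5 reversed. The shares of all genes called are given with each class above. In UMI-positive classes 7 gene and class pairs were higher in DREADD-CNO. The number was 11 with 4 UMIs for a positive call, 12 in ribosomal-poor cells, 4 in female cells, 17 without a filter on low levels and 4 with the C1q level subtracted. The 4 lower pairs became 1 with 4 UMIs, 2 with a mitochondrial limit of 20%, 1 in ribosomal-poor cells, 1 in female cells, 0 in male cells, 2 with a filter of 50 CPM and 250 UMIs, 1 with classes called on thinned counts and 2 without cells with other markers. In level classes the 1 higher pair became 2 with a C1q limit of 3 UMIs, 5 in ribosomal-poor cells, 4 in male cells, 4 without a filter, and 3 and 5 with level limits times 0.7 and times 1.4. The 3 lower pairs became 5 in ribosomal-poor cells, 7 in female cells, 0 in male cells, 7 without a filter and 5 with limits times 1.4. Members at 10% of peak by the double-high class were 2 in WT-CNO (5 with a mitochondrial limit of 20%, 4 in female cells, 4 without subtraction of C1q, 4 without the 5 richest cells) and 4 in DREADD-CNO (2 with a lineage gate of 1 UMI, 2 with limits times 1.4). Members with a share in Gpr17-high cells above that in C1q-positive cells were 2 in WT-CNO (1 when thinned to 2000 UMIs) and 3 in DREADD-CNO (1 with a mitochondrial limit of 5%, 1 in female cells, 1 when thinned to 2000 and 1 when thinned to 10000 UMIs). Reversed values were Mobp in cells with all 3 markers, 5.082 in ribosomal-poor and 2.939 in male cells, Mobp in Gpr17-falling cells, 39.37 in ribosomal-poor cells and 1.275 with limits times 1.4, and Mbp in precursor cells, 0.08481 with C1q subtracted, where the DREADD-CNO level was not above its C1q interval and no direction is read. The cause of the others was not tested. Male Gpr17-falling cells gave no value for want of 20 cells. In Enpp6-rising cells Cnp stayed between 21.9% and 36.4% of its peak under all alternatives run, above Mbp, at 3.61% to 8.78%, and Mobp did not pass 0.270%. Depth limits Mal, Opalin and Ermn, with 81 to 1028 UMIs per library.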
